A study of Mus musculus with 6 samples.

Results

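T cell receptor β chain (TCR-β) clonotypes found in both tumors of a pair are described here, that is, in an injected (treated) melanoma and in the untouched (distant) melanoma on the other hindlimb with the same replicate number. A clonotype was a combination of a TRBV gene, a TRBJ gene and an unmarked complementarity-determining region 3 (CDR3), where marks stand for stop codons or lost reading frames. The shared clonotypes were chosen by their reads, with at least 2 reads in each tumor of a number. They numbered 353 in number 1 and 252 in number 2, which are 584 distinct clonotypes, of which 21 were shared in both numbers. The whole series held 187625 distinct clonotypes in 6 libraries. The 4 tumors held 23357 clonotypes in number 1 and 17465 in number 2, and 5254 and 3950 of these had at least 2 reads in a tumor.

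All libraries came from C57BL/6 mice that carried MO4 tumors in both hindlimbs. MO4 is derived from B16F10 melanoma and makes ovalbumin (OVA), and 100000 cells were placed under the skin of each hindlimb on day 0. The treated tumor (right hindlimb, 2 libraries) had IFN-α-iPSC-pMC, myeloid cells made from induced pluripotent stem cells and named for interferon-α, placed around it. Each injection held 1000000 cells and was given on day 5, 6 and 7 and again on day 12 and 13. The distant tumor (left hindlimb, 2 libraries) grew in the same animals without injection, and the spleen (2 libraries) was taken from them as well. Tumor RNA was taken on day 14. No mouse without the myeloid cells was part of these libraries, so every tumor, distant ones included, came from an animal that received the cells. The series describes 2 mice, and libraries with the same number were taken to be from the same mouse. The files hold TCR-β sequences alone, so the tissue labels could not be checked against other marker genes.

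The β chain of a T cell is assembled in the thymus by joining a V, a D and a J segment, with bases added or removed at the joints. The joint encodes CDR3, the loop that lies over the peptide presented by a major histocompatibility molecule. Daughters of a T cell keep its rearrangement, so the same β chain at separate sites can mark cells of a common clone. Some rearrangements are made often, and the same CDR3 can then arise in separate cells or separate animals. In melanoma, T cells that recognise tumor antigens can leave the blood into several lesions, and a lesion also takes up T cells that do not recognise the tumor.

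The members that carry the results are shown by the CDR3 residues in the one-letter code, with the leading and closing residues that come mostly from the V and J genes at either end. Most sequences of up to 14 residues are printed whole, and longer ones and 3 others are named by genes and length. The clonotypes of highest abundance over the pair of tumors, by the geometric mean of the treated and distant read share, included in number 1
TRBV12-1/TRBJ1-2: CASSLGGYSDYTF
TRBV5/TRBJ2-3: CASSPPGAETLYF
TRBV20/TRBJ2-5: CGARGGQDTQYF
TRBV13-2/TRBJ2-5: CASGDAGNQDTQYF
TRBV19/TRBJ1-4: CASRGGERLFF
TRBV17/TRBJ2-3: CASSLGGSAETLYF
and in number 2
TRBV16/TRBJ2-7: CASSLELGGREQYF
TRBV13-3/TRBJ2-7: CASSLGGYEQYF
TRBV13-1/TRBJ1-6: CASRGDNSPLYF
TRBV20/TRBJ2-5: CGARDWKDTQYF.
None of these 10 was among the members of the other number except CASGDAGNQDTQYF.

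A group of near-identical CDR3s was found in both numbers and is shown because its members differ at the same places. In both numbers these were
TRBV31/TRBJ1-4 a: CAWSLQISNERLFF
TRBV31/TRBJ1-4 b: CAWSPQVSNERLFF
TRBV31/TRBJ1-4 c: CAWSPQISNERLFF
and in number 1 also
TRBV31/TRBJ1-4 d: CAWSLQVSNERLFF
TRBV31/TRBJ1-4 e: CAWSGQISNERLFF
and in number 2 also
TRBV31/TRBJ1-4 f: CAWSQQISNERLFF.
They vary at CDR3 positions 5 and 7, counted from the leading cysteine as 1.

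Before the results, a feature of the libraries bears on number 2 and on distant tumor 1. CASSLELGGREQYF, the leading shared clonotype of number 2, had 4461 reads in distant tumor 1 and 0 in treated tumor 1, so it was not a member of number 1. Of the 30 members of number 2 that form its family of 1-residue neighbours, 28 were also found in distant tumor 1 and 1 in treated tumor 1. Carry-over between libraries, a clonotype present in both animals and exchanged labels cannot be told apart in these files. For the uses that this family weighs on, TRBV16, TRBJ2-7, a length of 14 residues and middle glutamate, values are given with and without 1-residue variants. Productive reads, those of unmarked sequences, were 83171 and 56057 in the treated tumors, 82142 and 42320 in the distant tumors and 96907 and 135599 in the spleens. Where a clonotype had 0 reads, up to 3 reads remain possible, which is between 0.00221% and 0.00709% of a library. The library method has no molecular identifiers, so intervals and floors cover counting error only, and a high share can come from more T cells, more receptor RNA per cell or uneven PCR, which cannot be told apart here.

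Shared clonotypes were few, yet took a large part of the tumor reads. Of all clonotypes, they made up 2.77% and 3.34% in the treated and 3.15% and 2.44% in the distant tumors (numbers 1 and 2). Of all reads, they held 36.9% and 41.3% in the treated tumors, against 44.7% and 26.8% in the distant ones. In reads these were 30729 and 23143 in the treated, against 36697 and 11357 in the distant tumors. In the spleens the same clonotypes held 2.15% and 1.77% of reads. The treated tumor was thus below the distant tumor in number 1 and above it in number 2. Both shares follow from how members were chosen and are given as descriptions with no test.

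A single clonotype decided the order in number 1. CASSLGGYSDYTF alone held 41.4% of the member reads of distant tumor 1. Without it the other 352 members held 36.7% of treated tumor 1 and 26.2% of distant tumor 1, so the treated tumor was then the higher one in both numbers. In number 2, without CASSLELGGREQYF, the other 251 members held 37.4% of the treated and 20.9% of the distant tumor.

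Members were common among the leading clonotypes of each tumor, which follows in part from the read minimum, since abundant clonotypes pass it more easily. Among unmarked clonotypes with at least 2 reads in a tumor, members made up 12.8% and 19.2% in the treated and 12.4% and 8.71% in the distant tumors. Of the 10 clonotypes with the most reads, 6 were shared in treated tumor 1 and 6 in treated tumor 2, against 7 and 5 in distant tumors 1 and 2. Of the top 100, the counts were 63 and 51 in the treated, against 70 and 43 in the distant tumors. The 10 members with the most reads in each tumor, ranked anew in each, held 13.0% and 17.3% of the treated and 28.2% and 14.8% of the distant tumors.

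The read minimum sets who counts as shared. At the edge, 41 members of number 1 and 45 of number 2 had exactly 2 reads in the tumor where they were rarer, with a median of 6 and 4 reads and at most 150 and 189 in the other. Just outside were 150 and 97 clonotypes with 1 read in one tumor and at least 2 in the other, with a median of 4 and 3 reads and at most 805 and 474 there. A further 102 and 72 clonotypes had 1 read in each tumor. By the same minimum, tumors of different numbers had 46 clonotypes in common for the pair of treated tumors, 83 for treated 1 with distant 2, 75 for treated 2 with distant 1 and 107 for the pair of distant tumors. Without 1-residue variants of a clonotype with at least 20 times their tumor reads, the counts were 322 and 206 within numbers 1 and 2 and 42, 81, 39 and 68 across numbers. The counts within numbers were thus above those across numbers with and without the variants.

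The balance of a shared clonotype between its tumors was measured as the log2 ratio of its treated to its distant share. The median was 0.44 in number 1, with quartiles of -1.02 and 1.98 and a range of -6.34 to 7.35. In number 2 it was 0.62, with quartiles of -0.70 and 2.52 and a range of -4.69 to 6.41. In number 1, 198 members leaned to the treated and 155 to the distant tumor by share, and in number 2 these were 157 and 95. Shares are relative, and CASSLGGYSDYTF held 18.5% of distant tumor 1 against 0.228% of treated tumor 1. This lowers the distant shares of the other members of number 1 and raises their ratios, which were not recomputed without it. Members within 2-fold of equal share numbered 113 (32%) and 94 (37.3%). They held 5.41% and 11.7% of the treated and 4.87% and 14.3% of the distant tumors. All members together held 36.9% and 41.3% of the treated and 44.7% and 26.8% of the distant tumors. Most member reads thus lay in unequal clonotypes in both tumors of number 1 and in treated tumor 2, but not in distant tumor 2.

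Imbalances over 10-fold were counted on both sides. A share over 10-fold higher in the treated tumor was found for 36 members in each number (10.2% and 14.3%), against 16 and 5 members (4.53% and 1.98%) for the distant tumor. Across members, Spearman's correlation of the treated with the distant share was 0.392 over 353 clonotypes and 0.408 over 252. It is a description within pairs of libraries, and the read minimum in both tumors limits it.

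**Figure D1:**
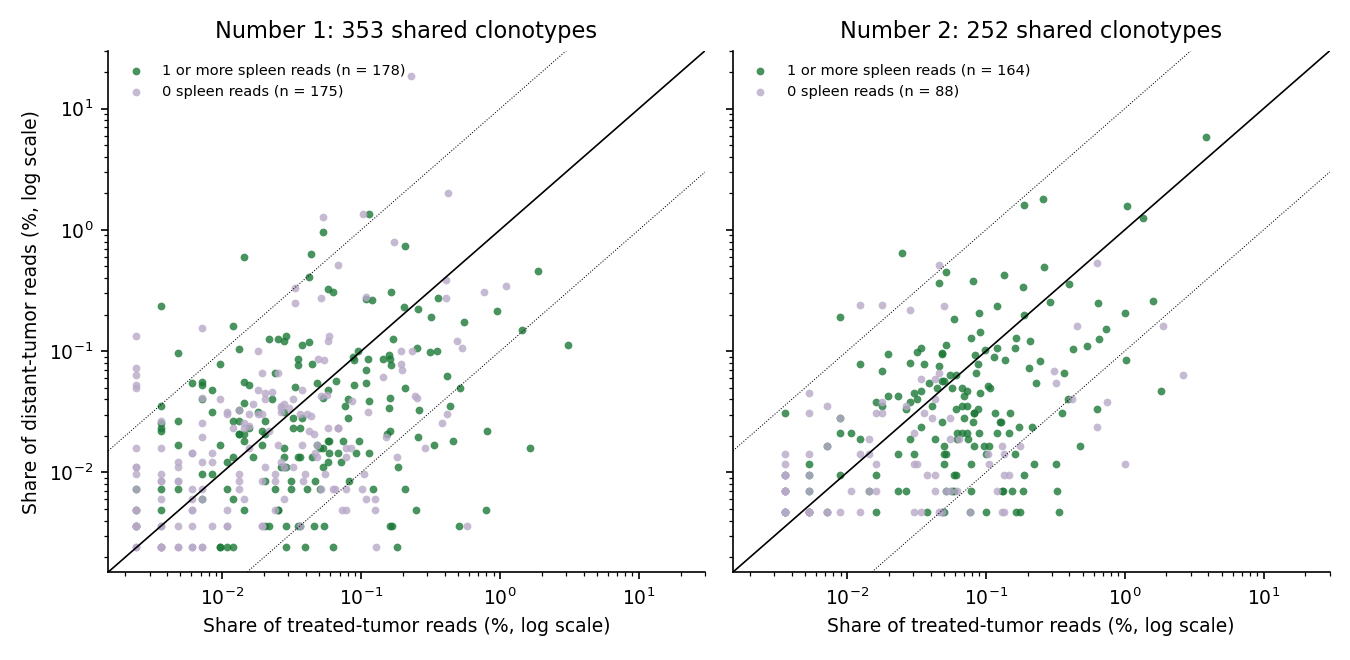
Each point is a shared clonotype, with its percent share of the productive reads of the treated tumor (x, log scale) and of the distant tumor (y, log scale), for numbers 1 and 2. The solid line marks equal shares, dotted lines mark 10-fold differences, and color marks whether the same-number spleen held any read (178 and 175 members in number 1, 164 and 88 in number 2). Points spread widely around the line in both numbers, and the lone point at the top of number 1 is the 18.5% clonotype of distant tumor 1.

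The median balance differed between classes of abundance. Among members with 4 to 9 reads in both tumors together, the median log2 ratio was -0.02 in number 1 (32 members) and -0.41 in number 2 (36 members). For 10 to 29 reads it was -0.09 (74) and 0.51 (45), and for 30 to 99 reads 0.49 (135) and 1.42 (104). For at least 100 reads it was 1.00 (112) and 1.5 (67). In the top class, 72 of 112 and 46 of 67 members leaned to the treated tumor. The median lay on the treated side in both numbers from 30 reads upwards, where those of number 1 are raised by the large distant share of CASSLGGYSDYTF. Members with few reads cannot be far from balance, since each tumor needs 2 reads, and 20 of the 32 and 35 of the 36 in the lowest class were 1-residue variants of a far larger clonotype. The classes use the reads that chose the members and are a description.

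**Figure D2:**
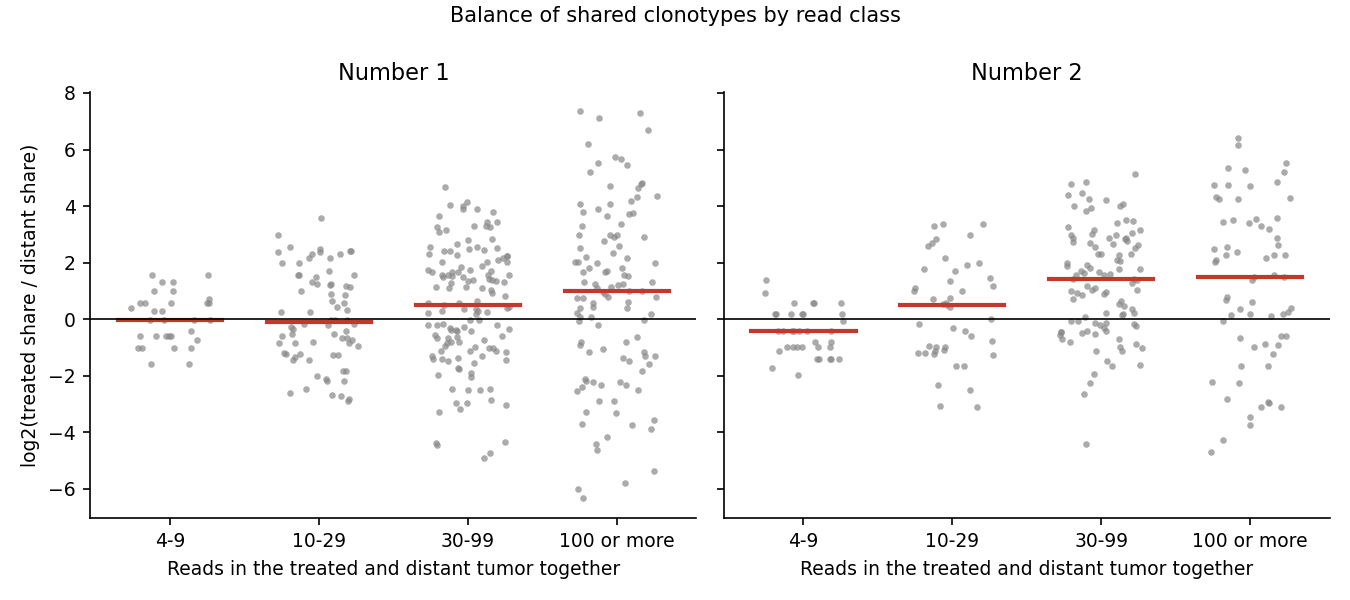
Each grey point is a shared clonotype, by its reads in the treated and distant tumor together (x, 4 classes) and the log2 ratio of its treated to its distant share (y), and the red line is the median of the class. Medians go from -0.02 to 1.00 in number 1 and from -0.41 to 1.5 in number 2 between the lowest and the highest class, and the points fan out with reads.

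The named members show how unequal the 2 sites could be. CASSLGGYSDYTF had 190 reads (0.228%) in treated tumor 1 and 15201 (18.5%) in distant tumor 1, and 0 in spleen 1. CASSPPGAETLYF had 353 (0.424%) and 1639 (2.00%) reads in the treated and distant tumor and 0 in spleen 1. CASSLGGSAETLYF had 95 (0.114%) and 1107 (1.35%), with 124 reads (0.128%) in spleen 1. These 3 were the members among the top 10 of number 1 that were higher in the distant tumor.

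The other members of the top 10 of number 1 were higher in the treated tumor. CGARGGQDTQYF had 922 reads (1.11%) in the treated, against 281 (0.342%) in the distant tumor, 0 in spleen 1 and 182 in distant tumor 2. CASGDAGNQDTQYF had 1206 (1.45%) and 122 (0.149%), with 20 reads in spleen 1. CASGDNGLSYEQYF (TRBV13-2/TRBJ2-7) had 636 (0.765%) and 255 (0.310%) and 0 in spleen 1. The remaining 3 longer ones, of TRBV12-2/TRBJ2-2 (16 residues), TRBV15/TRBJ1-1 (15) and TRBV5/TRBJ1-3 (15), had 1560, 2550 and 791 reads in the treated, against 379, 92 and 175 in the distant tumor. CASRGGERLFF was the most even of the 10, with 343 reads (0.412%, Wilson 95% interval 0.371% to 0.458%) in the treated and 319 (0.388%, 0.348% to 0.433%) in the distant tumor. The 2 intervals overlap, and this clonotype had 0 reads in both spleens and in the tumors of number 2.

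In number 2 the leading clonotype was close to balance. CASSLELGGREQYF had 2172 reads (3.87%, 3.72% to 4.04%) in the treated and 2494 (5.89%, 5.67% to 6.12%) in the distant tumor, with 5 reads in spleen 2. The TRBV13-2/TRBJ2-1 clonotype of 14 residues had 758 (1.35%, 1.26% to 1.45%) and 532 (1.26%, 1.16% to 1.37%), with 146 reads (0.108%) in spleen 2, and its tumor intervals overlap. The TRBV20/TRBJ1-2 clonotype of 13 residues had 585 (1.04%) and 661 (1.56%), with 156 reads (0.115%) in spleen 2. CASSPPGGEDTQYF (TRBV5/TRBJ2-5) had 354 (0.632%) and 226 (0.534%) and 0 in spleen 2. These 4 were within 2-fold between the tumors, while 1 of the top 10 of number 1 was.

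The other 6 of the top 10 of number 2 were unequal. On the treated side, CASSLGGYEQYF had 905 reads (1.61%) against 110 (0.260%) in the distant tumor. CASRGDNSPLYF had 1061 (1.89%) against 68 (0.161%), and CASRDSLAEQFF (TRBV13-1/TRBJ2-1) had 562 (1.00%) against 88 (0.208%). A TRBV5/TRBJ1-6 clonotype of 16 residues had 1473 (2.63%) against 27 (0.0638%), a ratio of 41.2. On the distant side, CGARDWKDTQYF had 105 reads (0.187%) in the treated, against 684 (1.62%) in the distant tumor, with 105 in spleen 2. A TRBV13-1/TRBJ2-4 clonotype of 15 residues had 144 (0.257%) and 760 (1.80%).

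Apart from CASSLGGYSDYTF, the members of most extreme balance had between 2 and 14 reads in one tumor, so their ratios are imprecise. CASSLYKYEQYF (TRBV29/TRBJ2-7) had 662 reads (0.796%) in treated tumor 1 and 4 (0.00487%, 0.00189% to 0.0125%) in distant tumor 1, a log2 ratio of 7.35. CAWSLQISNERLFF had 421 (0.506%) and 3 (0.00365%). In number 2, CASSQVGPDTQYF (TRBV2/TRBJ2-5) had 565 (1.01%) and 5 (0.0118%, 0.00505% to 0.0277%), a log2 ratio of 6.41, and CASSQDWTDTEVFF (TRBV5/TRBJ1-1) had 189 and 2 reads. At the other end, a TRBV14/TRBJ1-6 clonotype of 15 residues had 3 reads in treated and 192 in distant tumor 1, and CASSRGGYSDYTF (TRBV12-1/TRBJ1-2), which is 1 residue away from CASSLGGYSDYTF, had 2 and 109. In number 2 a TRBV5/TRBJ2-2 clonotype of 16 residues had 14 and 273 reads, and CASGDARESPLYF (TRBV13-2/TRBJ1-6) had 5 and 81.

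Presence in the spleen was not used to choose members. In the spleen of the same number, 178 of 353 members of number 1 had at least 1 read (50.4%, Wilson 95% interval 45.2% to 55.6%), and 164 of 252 of number 2 (65.1%, 59.0% to 70.7%). Single-tumor clonotypes, which had at least 4 reads in one tumor and 0 in the other, were found there in 682 of 3283 cases (20.8%, 19.4% to 22.2%) and 735 of 2061 (35.7%, 33.6% to 37.8%). The mean was 57.8% ± 10.4 for shared and 28.2% ± 10.5 for single-tumor clonotypes (SD, n = 2 each), a difference of 29.5 percentage points that had the same sign in both numbers. The exact permutation test, two-sided, gave p = 0.333, the smallest that 2 sets against 2 allow, so it cannot pass 0.05. Treated-only clonotypes were found in 16.7% and 23.7% and distant-only ones in 24.7% and 40.1%, all below the shared ones of their number over all reads. With the minimum lowered to 1 read in each tumor, the difference was 12.5 percentage points (exact permutation p = 0.667, two-sided, n = 2 each).

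Shared clonotypes had more reads than single-tumor ones, and the difference in spleen presence was not alike over read classes. With 4 to 9 tumor reads, 15.6% of shared and 18.5% of single-tumor clonotypes of number 1 had spleen reads, and 30.6% and 33.4% in number 2, so here the shared ones were not higher. Of these 32 and 36 shared clonotypes, 20 and 35 were 1-residue variants of a clonotype with at least 20 times their tumor reads. Without variants, spleen reads were found for 3 of 12 shared clonotypes in this class of number 1, against 245 of 1196 single-tumor ones (20.5%), and for 1 of 1 in number 2, so the class holds too few to compare. With 10 to 29 reads the shares were 43.2% and 20.5% in number 1 and 46.7% and 39.7% in number 2. With 30 to 99 reads they were 51.1% and 27.5% in number 1 and 77.9% and 37.8% in number 2. With at least 100 reads they were 64.3% and 33.3% in number 1 and 76.1% and 32.7% in number 2. In this top class the single-tumor value joins unlike parts. Distant-only clonotypes had spleen reads in 7 of 10 cases in number 1, above the shared value there, and in 10 of 17 (58.8%) in number 2, whereas treated-only ones had them in 9 of 38 (23.7%) and 8 of 38 (21.1%). The mean difference over numbers was -2.85, 14.8, 31.8 and 37.2 percentage points in the 4 classes, from low to high. Among the shared clonotypes the share was higher in each next of the lower 3 classes of both numbers. Among single-tumor clonotypes of number 1 it was also higher in each next class, from 18.5% to 33.3%. In number 2 it lay between 32.7% and 39.7% among single-tumor ones, with no steady rise. Distant-only clonotypes rose from 20.4% to 70.0% over the 4 classes of number 1. In the lower 3 classes of number 2 they rose from 36.1% to 60.9%. Spleen 2 had more reads than spleen 1 (135599 and 96907). At equal depth of all libraries the mean difference between shared and single-tumor clonotypes was 27.9 percentage points.

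**Figure D3:**
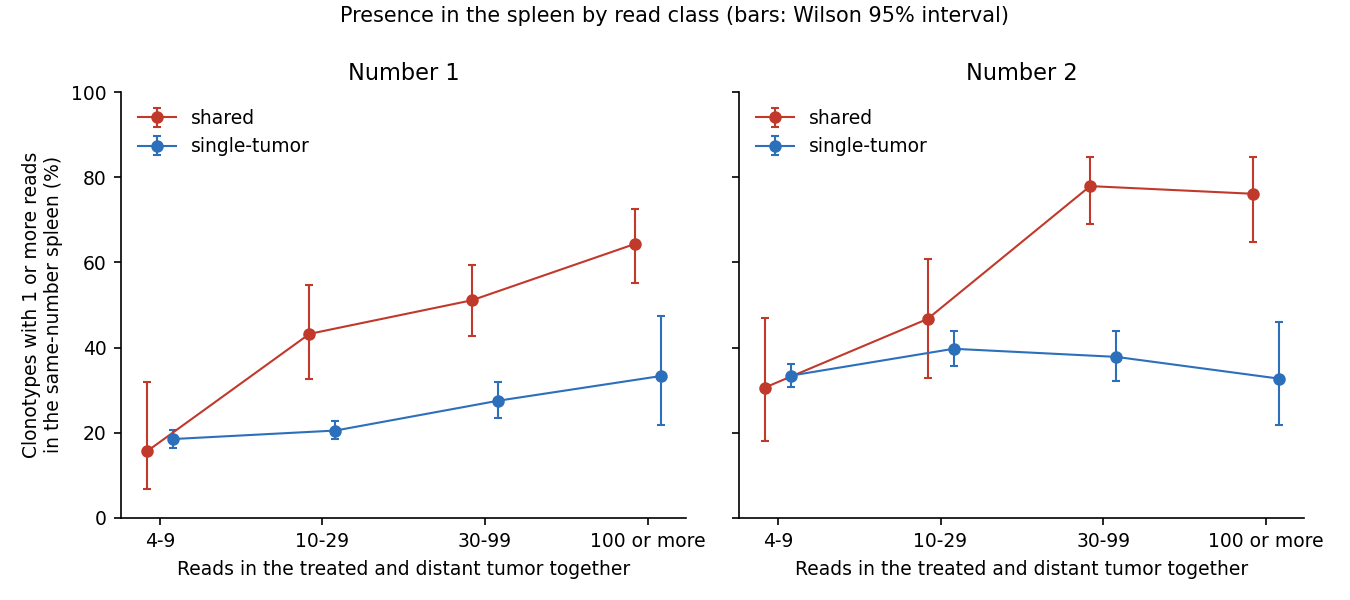
The percent of clonotypes with at least 1 read in the same-number spleen (y) is drawn by reads in the treated and distant tumor together (x, 4 classes), for shared (red) and single-tumor (blue) clonotypes, with Wilson 95% intervals as bars. The intervals overlap at 4 to 9 reads in both numbers and are apart from 30 reads upwards, where shared clonotypes lie between 51.1% and 77.9% and single-tumor ones between 27.5% and 37.8%.

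The spleen of the other number held fewer of them. It had reads of 83 of 353 members of number 1 (23.5%, 19.4% to 28.2%) and 44 of 252 of number 2 (17.5%, 13.3% to 22.6%), a mean of 20.5% ± 4.28 (SD, n = 2). The same-number spleen exceeded it by 37.3 percentage points (exact permutation p = 0.333, two-sided, the smallest possible, n = 2 each). With a minimum of 1 read in each tumor this difference was 24.4 percentage points. Single-tumor clonotypes were found in the other number's spleen in 12.3% and 12.5% of cases. The mean of shared clonotypes was 8.07 percentage points above these (exact permutation p = 0.333, two-sided, n = 2 each). This difference was not alike over read classes. With 4 to 9 tumor reads, 3.12% of shared and 10.1% of single-tumor clonotypes of number 1 were found there. In number 2 these were 2.78% and 12.1%. Most shared ones of that class were 1-residue variants. With 10 to 29 reads they were 12.2% and 12.7% in number 1 and 15.6% and 13.6% in number 2. From 30 reads upwards the shared ones were higher in both numbers, at 38.4% against 20.8% and 17.9% against 10.9% in the top class.

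Members with spleen reads carried more of the tumor reads, with an exception in distant tumor 1. In number 1 the 178 with spleen reads held 24.6% of the treated and 13.7% of the distant tumor, and the 175 without held 12.3% and 30.9%, of which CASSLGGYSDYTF was 18.5%. In number 2 the 164 with spleen reads held 29.4% and 23.1%, and the 88 without held 11.9% and 3.71%. The median log2 ratio was 0.74 and 0.77 for members with spleen reads and 0.28 and 0.48 for those without. Spleen counts were mostly low, with a median of 4 reads among those found in each number, exactly 1 read for 38 and 36 members and at least 10 reads for 45 and 49.

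A few members reached a high spleen share. In number 1, 14 members had a higher share in the spleen than in either tumor, and in number 2 there were 0. A TRBV14/TRBJ1-6 clonotype of 15 residues had 236 reads in spleen 1 (0.244%), against 3 in treated and 192 in distant tumor 1. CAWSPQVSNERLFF had 135 reads (0.162%) in treated and 18 (0.0219%) in distant tumor 1 and 167 (0.172%) in spleen 1. In number 2, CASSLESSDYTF (TRBV15/TRBJ1-2) had 361 (0.644%), 105 (0.248%) and 411 (0.303%) reads in treated tumor, distant tumor and spleen. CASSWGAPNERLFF (TRBV14/TRBJ1-4) had 91 (0.162%), 45 (0.106%) and 195 (0.144%). Across members, the Spearman correlation of the spleen share was 0.242 with the treated and 0.185 with the distant share in number 1 (353 clonotypes), and 0.397 and 0.427 in number 2 (252), as a description over clonotypes of the same 3 libraries.

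V genes of the shared clonotypes were next counted once per clonotype. TRBV genes lie on mouse chromosome 6, and in the GENCODE M21 annotation (GRCm38) the 22 TRBV and 12 TRBJ genes of the members all matched a gene there. From start to end, TRBV13-2 spans 41121396 to 41121832, TRBV5 41062332 to 41062803, TRBV16 41151740 to 41152230 and TRBV20 41188273 to 41188977 on the plus strand. TRBV31 lies beyond the J genes on the minus strand, at 41557691 to 41558452. The files give no coordinates, and TRBV12-1 with TRBV12-2 and the TRBV13 genes are close relatives between which assignment can be uncertain.

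TRBV13-2 was the most used gene in number 1, with 42 members (11.9%), and had 25 members in number 2 (9.92%). TRBV5 followed in number 1 with 34 members (9.63%), against 15 (5.95%) in number 2. In number 2 TRBV16 led with 39 members (15.5%), against 16 (4.53%) in number 1. Of those 39, 30 belong to the family of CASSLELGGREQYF, and 28 of these had at most a twentieth of its tumor reads. Without 1-residue variants TRBV16 had 11 of 206 members (5.34%) in number 2 and 15 of 322 (4.66%) in number 1. By reads, TRBV12-1 held 20.7% of distant tumor 1 through 14 members, of which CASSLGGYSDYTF made up 18.5%, and TRBV16 held 7.32% of treated and 7.77% of distant tumor 2.

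Against single-tumor clonotypes, 0 of 22 TRBV genes passed edgeR's quasi-likelihood test at an adjusted p of 0.05 (0% called over all genes tested), none (0) was under 0.05 before adjustment, and DESeq2 called 0. TRBV20 was used by 3.97% and 7.14% of shared and 3.38% and 3.44% of single-tumor clonotypes (log2 fold 0.67, SE 0.31, edgeR adjusted p = 0.592), and its log2 fold was 0.21 with 1-residue variants left out. TRBV30 was used by 0.283% and 1.59% of shared and 0.335% and 0.243% of single-tumor clonotypes (log2 fold 1.64, from 0.10 to 6.29 over 22 alternatives). TRBV12-1 was used by 3.97% and 0.794% of shared and 6.06% and 4.51% of single-tumor clonotypes (log2 fold -0.93, from -2.65 to -0.33 over 22 alternatives). For TRBV30 the value of number 1 lay between the single-tumor values and that of number 2 above both.

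Against spleen clonotypes, which had at least 2 spleen reads and were in none of the tumor sets, edgeR called 0 of 22 TRBV genes (0%), 8 were under 0.05 before adjustment, and 1 (TRBV30) was called by DESeq2. TRBV14 was used by 3.68% and 3.17% of shared and 1.73% and 1.67% of spleen clonotypes (log2 fold 1.03, SE 0.24, edgeR adjusted p = 0.0808). Single-tumor clonotypes used TRBV14 in 3.32% and 2.91% of cases, so this use was not particular to shared ones. It was 4.28% and 4.13% in treated-only and 2.39% and 2.46% in distant-only clonotypes. TRBV20 stood at 3.97% and 7.14% of shared and 2.24% and 3.23% of spleen clonotypes (log2 fold 0.97, adjusted p = 0.0827 by edgeR). Without 1-residue variants TRBV20 was used by 3.42% and 4.37% of shared and 2.25% and 3.22% of spleen clonotypes. TRBV1 stood at 3.40% and 5.16% of shared and 9.22% and 7.53% of spleen clonotypes (log2 fold -1.01, adjusted p = 0.0827 by edgeR). For all 3 genes, both shared values lay on one side of both spleen values. This does not set them apart, since it held for other TRBV genes as well. Examples are TRBV15, with 3.40% and 2.78% of shared against 4.72% and 5.99% of spleen clonotypes, and TRBV26, with 6.23% and 6.35% against 2.39% and 3.84%. With 1-residue variants left out, edgeR called 6 genes, with TRBV14, TRBV19, TRBV26 and TRBV30 higher and TRBV1 and TRBV12-1 lower in shared clonotypes, so this count depends on the variants.

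**Figure D4:**
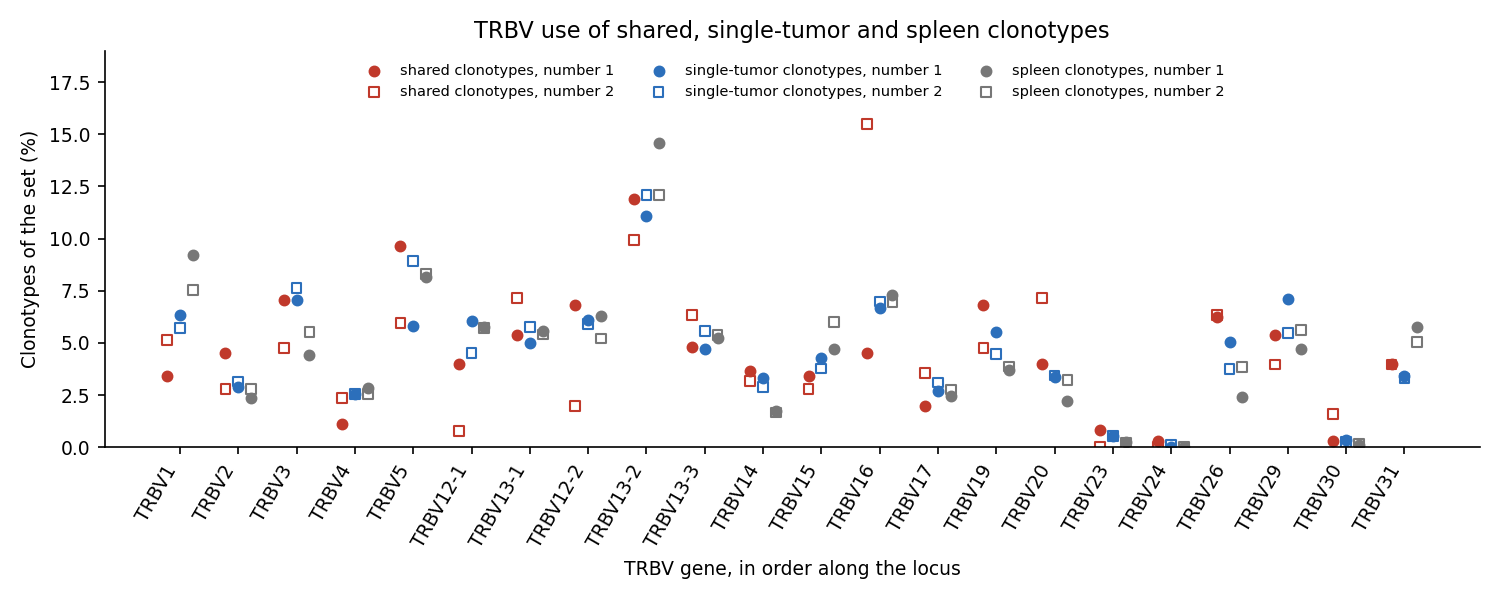
The percent of clonotypes that use each TRBV gene (y, genes along x in their order on the locus) is shown for shared, single-tumor and spleen clonotypes of numbers 1 (filled circles) and 2 (open squares). TRBV16 of shared clonotypes in number 2 stands at 15.5%. TRBV14 of shared clonotypes at 3.68% and 3.17% lies above the spleen's 1.73% and 1.67%, as do single-tumor clonotypes at 3.32% and 2.91%.

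The 12 TRBJ genes were compared in the same way. TRBJ2-7 was the most used, in 20.1% of members of number 1 and 27.8% of number 2, against 19.6% and 19.4% of single-tumor and 19.8% and 20.4% of spleen clonotypes. By edgeR its log2 fold against single-tumor clonotypes was 0.26 (SE 0.20, adjusted p = 0.870). The value of number 2 rested on the family of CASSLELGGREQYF. Without 1-residue variants TRBJ2-7 was used by 21.1% and 20.4% of shared and 19.6% and 19.5% of single-tumor clonotypes, with an edgeR log2 fold of 0.09 (adjusted p = 0.975). TRBJ1-2 was used by 4.53% and 11.1% of shared and 5.26% and 5.11% of spleen clonotypes (edgeR log2 fold 0.50, SE 0.34, adjusted p = 0.614), so the 2 numbers lay on either side of the spleen. TRBJ2-2 was used by 5.10% and 2.78% of shared and 5.45% and 4.80% of single-tumor clonotypes (edgeR log2 fold -0.34, SE 0.42, adjusted p = 0.870). TRBJ1-6 was used by 4.25% and 4.37% of shared and 2.99% and 2.59% of spleen clonotypes (edgeR log2 fold 0.63, SE 0.42, adjusted p = 0.614). TRBJ2-4 was used by 7.37% and 6.75% of shared, 8.74% and 10.2% of single-tumor and 9.89% and 9.81% of spleen clonotypes (edgeR log2 fold -0.40 and -0.47, adjusted p = 0.870 and 0.614). In both comparisons edgeR called 0 of 12 TRBJ genes (0% and 0%), with 0 under 0.05 before adjustment and 0 called by DESeq2.

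CDR3 length was centred on 14 residues in the members of both numbers, with a range of 10 to 18 in number 1 and 9 to 17 in number 2. In number 1, 31.2% of members had 14 residues and in number 2 39.7%, against 29.8% and 28.6% of single-tumor and 30.9% and 30.4% of spleen clonotypes. Without 1-residue variants 32.6% and 32% of shared and 29.4% and 29.3% of single-tumor clonotypes had 14 residues, so the higher value of number 2 rested on them. Length 15 was held by 17.8% and 17.5% of shared and 22.4% and 23.3% of single-tumor clonotypes (log2 fold -0.36, SE 0.16, edgeR adjusted p = 0.160). Length 17 was the only one of 13 that passed (7.69% called), and it did so on few members. It was held by 1 of 353 (0.283%, Wilson 95% interval 0.05% to 1.59%) and 2 of 252 (0.794%, 0.218% to 2.85%) shared clonotypes, against 76 of 3283 (2.31%) and 45 of 2061 (2.18%) single-tumor clonotypes. The edgeR log2 fold was -2.18 (SE 0.58, adjusted p = 0.0105), and DESeq2 called 0 lengths.

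Against spleen clonotypes, of which 1.84% and 1.85% had 17 residues, 1 of 13 lengths passed as well (7.69% called), again length 17 with a log2 fold of -1.89 (SE 0.59, edgeR adjusted p = 0.0499). The call against single-tumor clonotypes held in 13 of 22 alternatives, with a log2 fold from -2.98 to -1.49, and the call against the spleen in 4 of 20. Without distant-only replicate 1, distant-only replicate 2 or shared replicate 1, no length passed in either comparison.

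Residues were counted in the middle of the CDR3, from position 5 to the fifth from the end, where the V and J genes contribute less. Of 20 residues, 2 passed against single-tumor clonotypes (10.0% called). Glutamate (E) was more frequent in shared clonotypes, at 131 of 2021 residues (6.48%) and 95 of 1438 (6.61%), against 4.79% and 5.06% in single-tumor clonotypes (log2 fold 0.44, SE 0.12, edgeR adjusted p = 0.0225). Histidine (H) was less frequent, at 6 of 2021 (0.297%) and 5 of 1438 (0.348%), against 0.761% and 0.747% (log2 fold -1.26, SE 0.33, edgeR adjusted p = 0.0225). Both values of each residue lay outside both single-tumor values.

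The many neighbours of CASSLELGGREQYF hold glutamate in their middle. Without 1-residue variants the log2 fold of glutamate was 0.27 (edgeR adjusted p = 0.125), and the call held in 11 of 22 alternatives. The histidine call held in 8 of 22 and was lost with the replicate block (edgeR adjusted p = 0.0506). Leaving out either shared set ended both calls. Against spleen clonotypes edgeR called 0 of 20 residues (0%), with 2 at an unadjusted p under 0.05 and 0 called by DESeq2. These 2 were again histidine (log2 fold -1.16, edgeR adjusted p = 0.0586) and glutamate (log2 fold 0.36, edgeR adjusted p = 0.0604). Tryptophan (W), next by p, made up 1.93% and 1.53% of these residues in shared and 2.29% and 2.25% in spleen clonotypes (log2 fold -0.36, edgeR adjusted p = 0.544).

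Many shared clonotypes had a neighbour among the members of their number with the same V, J and length and 1 residue different. In number 1, 83 members formed 31 such families, of which the largest had 6 members and 7 had at least 3. In number 2, 67 members formed 12 families, of which the largest had 30 and 6 had at least 3. Families of 2 kinds were seen. In the first, a leading clonotype stood above neighbours with at most a twentieth of its tumor reads, and 30 members of number 1 and all 46 variants of number 2 were such neighbours. A further variant of number 1, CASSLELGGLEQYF, stood below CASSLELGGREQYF, which was not a member there.

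The family of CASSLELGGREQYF is the main case, with 28 of 30 members in that position and changes at 13 of its 14 positions. Its 29 neighbours had together 147 reads in treated tumor 2 and 407 in distant tumor 2, or 6.77 and 16.3 per 100 reads of the leader. The neighbour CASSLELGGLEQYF accounts for 26 and 216 of these reads and is itself a member of both numbers, without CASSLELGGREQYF in treated tumor 1. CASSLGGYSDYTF, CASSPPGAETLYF and the TRBV12-2/TRBJ2-2 clonotype of 16 residues each led 5 such neighbours in number 1, and the TRBV20/TRBJ1-2 clonotype of 13 residues led 7 in number 2. In all, the 31 and 46 variants had 147 and 176 reads in the treated, against 414 and 241 in the distant tumors, so they weigh on counts of clonotypes and little on shares. They were rarely found in the spleen, in 2 of 31 (6.45%, 1.79% to 20.7%) and 12 of 46 (26.1%, 15.6% to 40.3%). Without them, the same-number spleen held 176 of 322 (54.7%) and 152 of 206 (73.8%) of the remaining members. Whether sequencing or PCR error takes part in them was not tested, since the files hold no bases.

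In the second kind no member had a neighbour with 20 times its tumor reads, though reads within a group could still differ widely. The TRBV31/TRBJ1-4 group had 5 members in number 1, from 33 to 424 tumor reads, and 4 in number 2, from 24 to 35, and each had reads in the spleen of its number. In number 1 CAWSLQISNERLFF had 421 reads in the treated tumor, the other 4 together 297, and in distant tumor 1 these were 3 and 57. In spleen 1 the 5 had 194 reads in sum. In number 2 the lead member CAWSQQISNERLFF had 28 and 7 reads in the treated and distant tumor and the other 3 together 60 and 26. A TRBV29/TRBJ2-7 group around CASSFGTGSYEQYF in number 1 (4 members, from 11 to 212 tumor reads, all found in spleen 1) and a TRBV13-3/TRBJ2-1 group around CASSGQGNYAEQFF in number 2 (4 members, from 64 to 282 tumor reads, 3 found in spleen 2) were of the same kind. In all, 39 members of number 1 and 12 of number 2 were in families with no 20-fold neighbour.

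Clonotypes shared in both numbers numbered 21, or 5.95% of the members of number 1 and 8.33% of those of number 2. Their read share was 6.31% and 2.77% in the treated and 1.45% and 1.34% in the distant tumors of numbers 1 and 2, and 0.620% and 0.176% of the spleens. Of the 21, 20 had reads in a spleen and 19 in both, 18 had at most 14 residues, 9 used TRBJ2-7 and 3 were of the TRBV31/TRBJ1-4 group. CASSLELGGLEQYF was the one with 0 reads in both spleens.

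The balance of these 21 in one number can be set beside the other. On the treated side of both numbers lay 13 and on the distant side of both lay 4, while 4 were on opposite sides. Their median log2 ratio was 1.73 in number 1 and 1.05 in number 2, and Spearman's correlation of the ratios between numbers was 0.257 over 21 clonotypes, as a description. The balance in one number thus gave little of the order in the other.

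Values of the leading ones show the range. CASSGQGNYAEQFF (TRBV13-3/TRBJ2-1) had 120 treated and 71 distant reads in number 1, and 238 and 44 in number 2. A TRBV13-2/TRBJ2-2 clonotype of 14 residues had 1365 and 13 in number 1 and 269 and 7 in number 2. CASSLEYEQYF (TRBV12-1/TRBJ2-7) had 462 and 142 in number 1 and 73 and 3 in number 2. These 3 leaned to the treated tumor each time. A TRBV16/TRBJ2-7 clonotype of 15 residues had 91 and 223 in number 1 and 51 and 61 in number 2 and was higher in the distant tumor of both. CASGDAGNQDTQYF had 1206 and 122 in number 1, but 17 and 19 in number 2. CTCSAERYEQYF (TRBV1/TRBJ2-7) was among the more frequent in the spleens, with 262, 81 and 72 reads in treated tumor, distant tumor and spleen of number 1 and 41, 15 and 37 in number 2.

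**Figure D5:**
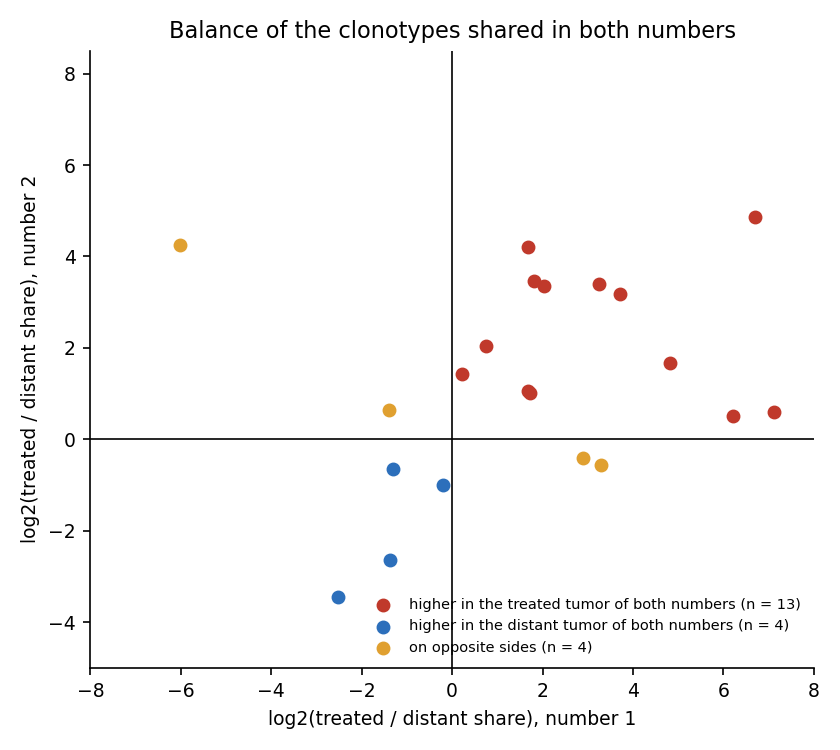
Each of the 21 points is a clonotype shared in both numbers, with the log2 ratio of its treated to its distant share in number 1 (x) and number 2 (y). Red points (13) lie on the treated side in both numbers, blue points (4) on the distant side in both, and yellow points (4) on opposite sides, the farthest being at -6.02 in number 1 and 4.26 in number 2.

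Presence in the tumors of the other number was also measured with any read. It was found for 60 of 353 members of number 1 (17%, 13.4% to 21.3%) and 66 of 252 of number 2 (26.2%, 21.1% to 31.9%), against 3.72% and 4.75% of single-tumor clonotypes. The mean was 21.6% ± 6.50 for shared and 4.24% ± 0.735 for single-tumor clonotypes (SD, n = 2 each), a difference of 17.4 percentage points (exact permutation p = 0.333, two-sided, the smallest possible). It is not matched for reads, of which shared clonotypes had more. Shared values were higher in all 4 read classes of both numbers, but the lower classes say little. In number 2 the classes of 4 to 9 and 10 to 29 reads (17 of 36 and 15 of 45 found) held 35 and 11 variants. Values by class without variants were not made. In number 1 the class of 4 to 9 reads rested on 2 of 32 (6.25%, 1.73% to 20.1%). With at least 100 reads shared values were 26.8% (19.5% to 35.7%) against 16.7% (8.70% to 29.6%) in number 1. In number 2 they were 25.4% (16.5% to 36.9%) against 7.27% (2.86% to 17.3%), and the intervals overlap in both numbers. In number 2, 26 of the 46 variants were found in distant tumor 1 and 0 in treated tumor 1. Without variants the values were 55 of 322 (17.1%) and 40 of 206 (19.4%).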

How the data were processed

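TCR-β repertoires of 6 libraries were used, grouped by their titles into 3 tissues of 2 libraries. Per the labels' protocols, total RNA was made into cDNA with a 5′ adaptor, amplified with adaptor and constant region primers and read on a MiSeq (paired 300 bp). Each deposited file lists, per the file headers, TRBV, TRBJ, CDR3, a read count and a percent. The counts are raw reads as deposited, without normalization, and the percent values deposited by the authors were not used in place of counts. How V and J were assigned, with which germline reference and error correction, is not stated in the labels or file headers.

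Sequences with a stop or frame mark were left out, and shares are of the remaining reads. The 8 sets compared (shared, treated-only, distant-only and spleen clonotypes of numbers 1 and 2) were counted once per clonotype by TRBV, TRBJ, CDR3 length and middle residue. Features with fewer than 10 clonotypes over the sets were left out. edgeR 4.0.16 (R 4.3.3) fitted all 8 sets with 4 residual degrees of freedom and scaling by set size. Shared clonotypes were set against the mean of treated-only and distant-only ones and against spleen ones, with Benjamini-Hochberg adjustment within each kind of feature. DESeq2 1.42.0 and a fit with the number as replicate block were alternatives. Presence in the spleen was compared by exact permutation over sets (scipy 1.17.1). P-values measure the spread between 2 numbers, and sets of the same number share libraries. Equal depth means 1 seeded draw of 42320 reads per library. The fit was tested on simulated data. Read shares without the leading clonotype, and counts across numbers, feature use and spleen presence by read class without 1-residue variants, were chosen after seeing the data.

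Members and lists were chosen with earlier results of these data known. Clonotypes were named by rule: per number the 10 of highest geometric mean share, the 3 highest and 3 lowest in balance, the 3 with most spleen reads, and the 5 leading members of both numbers. Members of families and a few others shared in both numbers were named after their values were seen. Features were named where called, or as the 3 of lowest p, and TRBV13-2, TRBV5, TRBV16, the TRBV genes called without variants and lengths 14 and 15 after their values were seen.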

Additional observations from a re-analysis of the deposited data

Results flagged for a closer look

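Among the named clonotypes shared in both numbers, 3 had their higher share in the treated tumor of one number and in the distant tumor of the other. The difference of the log2 ratios of treated to distant share, number 1 minus number 2, was 3.85 for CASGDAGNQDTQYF (TRBV13-2/TRBJ2-5), which stood at 3.29 in number 1 and -0.57 in number 2. It was -10.28 for a TRBV14/TRBJ1-6 clonotype of 15 residues, with 3 treated and 192 distant reads in number 1, and 356 and 14 in number 2. It was 3.29 for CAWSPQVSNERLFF (TRBV31/TRBJ1-4), with 135 and 18 reads in number 1 and 16 and 16 in number 2. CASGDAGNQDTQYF had 17 treated and 19 distant reads in number 2. The distant side of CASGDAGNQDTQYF and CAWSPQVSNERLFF in number 2 thus rests on few and near-equal reads, and their change of side is uncertain. With 1 library per tumor and number, these differences were not tested.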

How the results depend on the processing

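The read minimum set the number of shared clonotypes, which was 605 and 421 with 1 read in each tumor, 191 and 117 with 10 reads, and 167 in number 2 with 5 reads. In the class of 4 to 9 tumor reads the difference in spleen presence was -2.85 percentage points, the reverse of the whole, and nearly all its shared clonotypes of number 2 were 1-residue variants (35 of 36). Over all reads, leave-one-out gave 29.4 to 29.7 percentage points for the spleen difference between shared and single-tumor clonotypes. For the same-number against the other spleen it gave 26.9 to 47.6.

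No TRBV gene passed against spleen clonotypes, yet DESeq2 called 1, TMM scaling 5, no filter on low counts 4, a shared minimum of 1 read 1 and of 5 reads 4, variants left out 6, equal depth 3 and leave-one-out 0 to 3. The call of a CDR3 length against single-tumor clonotypes became 0 with DESeq2, a single-tumor minimum of 2 or 10, a shared minimum of 5 or 10 and equal depth, and 0 to 2 on leave-one-out. The call of a length against the spleen became 0 under these, TMM, no filter, variants left out and lesser V assignments left out, and 0 to 1 on leave-one-out. The 2 residues called against single-tumor clonotypes became 1 with DESeq2, the replicate block or a shared minimum of 1, and 0 with a single-tumor minimum of 2 or 10, a shared minimum of 5 or 10 and variants left out. They became 0 against distant-only clonotypes alone, a comparison chosen after seeing the data, and 0 to 3 on leave-one-out. Residues called against the spleen were 2 with TMM, 3 with a shared minimum of 1, 1 with lesser V assignments left out or equal depth, and 0 to 2 on leave-one-out. The log2 fold of TRBJ1-2 against the spleen ran from -0.19 to 1.10 on leave-one-out, with the lowest value without shared replicate 2. The causes were not tested.

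The labels do not say that a number marks a shared mouse, so the replicate block was an alternative. Paired over the numbers, the spleen differences of 29.5 and 37.3 gave an exact sign-flip p = 0.5, two-sided, the smallest that 2 pairs allow (n = 2). The deviations of TRBV use in shared sets correlated at -0.078, -0.279 and 0.177 with treated-only, distant-only and spleen sets of the same number. The replicate block changed no other count of calls.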

Other observations

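Sequences with a stop or frame mark, which cannot make a β chain, were also present in both tumors of a number. With at least 2 reads in each tumor there were 19 in number 1, which is 7.57% of the 251 marked sequences with at least 2 reads in the treated tumor and 9.0% of the 211 in the distant tumor. In number 2 there were 11, or 9.48% of 116 and 8.27% of 133. Of unmarked clonotypes with at least 2 reads, 12.8% of those in treated tumor 1 and 12.4% of those in distant tumor 1 were shared, and in number 2 these were 19.2% and 8.71%. The shared marked sequences held 206 treated and 288 distant reads in number 1, and 116 and 201 in number 2.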
